A study of Mus musculus with 6 samples.

Results

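The genes described here are 10 inducible zinc finger transcription factors of 3 families: Egr1, Egr2 and Egr3, the nuclear receptors Nr4a1, Nr4a2 and Nr4a3, and the Krüppel-like factors Klf2, Klf4, Klf6 and Klf7. They were taken as every probe whose gene name on the array equals one of these symbols, out of 23621 named genes on the array. Of the 10 genes, 8 passed the filter on dim probes and were tested, among 14979 named genes tested. Egr3 and Nr4a3 did not pass it and are given by their values only.

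The mouse macrophage line RAW264.7 was cultured for 4 h in DMEM medium alone or with AEPS at 50 µg/ml. AEPS is a polysaccharide prepared from the roots of Actinidia eriantha, a relative of the kiwifruit. Each group had 3 samples, and total RNA was hybridised to 1-colour Agilent arrays. All samples come from 1 established line, and the labels name no genetic modification and no separate culture for each replicate. The p-values below therefore measure only the spread between these samples, which may be technical.

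The scanner files of replicates 1 and 2 were identical in each group at all 62976 of 62976 spots, so these were counted as 1 sample and each group held 2 distinct scanner arrays. The authors' value table held 3 distinct columns per group. Its first column matched the scanner file of replicates 1 and 2, and its second column the file labelled replicate 3, each with a Spearman correlation of 0.9999996. The third column matched no scanner file in either group, so scanner replicate 3 and the third table column are different arrays. Each of 2 slides carried 1 control and 1 AEPS array. Between 55.4% and 58.7% of 59305 spots were well above background on each array. The 75th percentile of the processed signal was 401 and 287 in controls and 575 and 488 with AEPS, while the median log2 signal of the 8 spike-in probes was 13.51 and 13.40 against 13.45 and 13.54. All 8 macrophage markers examined, Csf1r and Cd68 among them, were well above background on all 4 arrays. Of the markers of other cell types examined, the fibroblast gene Col1a2, the T cell genes Cd3e and Cd4, the B cell gene Cd79a and the endothelial gene Kdr were above background on every array. The fibroblast genes Col1a1 and Dcn and the B cell gene Ms4a1 were above it on none. The T cell gene Cd3d and the endothelial genes Cdh5 and Tek were above it on 1 array each, and the fibroblast gene Col3a1 on 2. Before any scaling, the summed signal of the T cell list was 12560 and 7470 in controls and 13195 and 8091 with AEPS. That of the endothelial list was 16831 and 15986 against 21115 and 19160, and the fibroblast list summed to at most 222 on any array. After scaling to the 75th percentile, the scanner estimates were -0.55 for Cd3e, -0.55 for Cd4 and -0.35 for Kdr. Those of Col1a2 and Cd79a were -0.72 and -0.25, and none of these genes passed. Spike-in scaling gave 0.06, 0.06, 0.26, -0.11 and 0.36 in the same order. The dim T cell marker Cd8a was above background on 3 arrays, so it was tested through only 1 group that passed the filter. Its scaled log2 signal was -2.11 and -3.32 in controls and -4.10 and -5.05 with AEPS. Its estimate was -1.69 in the table (limma, adjusted p = 0.00727), -1.86 on the scanner arrays (adjusted p = 0.119) and -1.26 under spike-in scaling. Because of that filter, no fall is read from these values. The part of these markers in the results below was not tested.

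EGR proteins are zinc finger factors that bind GC-rich sites and are induced within minutes to hours by growth factor and pattern recognition receptor signalling through the MAP kinase pathway. NR4A proteins are orphan nuclear receptors that act without a known natural ligand and, in macrophages, restrain inflammatory gene transcription. Krüppel-like factors bind CACCC and GC boxes, and in macrophages KLF2 and KLF4 are known as regulators of inflammatory activation. Genes of all these families are classed among the immediate-early or early response genes, whose promoters often carry binding sites for SRF (the CArG box) and CREB (the cyclic AMP response element, CRE).

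The promoters of 4 members are shown because these genes carry the contrast between and within the families: Klf7 had the highest change, Klf4 the lowest, and Egr2 and Nr4a1 the larger one of their families. Each is the 250 bases before the annotated start in RefSeq, build GRCm38.p6, written 5′ to 3′ on the gene's strand. Capitals mark a CRE core (TGACG on either strand), a CArG box or a TATA core (TATAA on either strand). The windows are chr1:64121390-64121639 on the minus strand for Klf7, chr4:55532476-55532725 on the minus strand for Klf4, chr10:67537619-67537868 on the plus strand for Egr2 and chr15:101266596-101266845 on the plus strand for Nr4a1. Egr2 has 5 annotated starts, and the window shown is the third of them, one of those that hold both a CArG box and CRE cores.
Egr2: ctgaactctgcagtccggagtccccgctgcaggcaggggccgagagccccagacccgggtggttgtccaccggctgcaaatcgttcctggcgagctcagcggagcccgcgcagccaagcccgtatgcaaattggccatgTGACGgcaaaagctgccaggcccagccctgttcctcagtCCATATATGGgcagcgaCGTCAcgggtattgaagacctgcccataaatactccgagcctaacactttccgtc
Nr4a1: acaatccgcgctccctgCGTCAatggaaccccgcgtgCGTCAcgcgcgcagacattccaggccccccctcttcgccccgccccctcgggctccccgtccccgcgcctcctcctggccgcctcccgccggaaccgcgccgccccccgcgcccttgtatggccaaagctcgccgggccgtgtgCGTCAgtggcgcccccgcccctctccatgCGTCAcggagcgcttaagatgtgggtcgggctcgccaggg
Klf4: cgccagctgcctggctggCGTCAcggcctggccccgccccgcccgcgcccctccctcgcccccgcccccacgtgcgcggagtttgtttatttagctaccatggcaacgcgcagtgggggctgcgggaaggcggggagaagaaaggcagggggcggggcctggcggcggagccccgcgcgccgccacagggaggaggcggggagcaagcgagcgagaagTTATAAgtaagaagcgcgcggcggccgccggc
Klf7: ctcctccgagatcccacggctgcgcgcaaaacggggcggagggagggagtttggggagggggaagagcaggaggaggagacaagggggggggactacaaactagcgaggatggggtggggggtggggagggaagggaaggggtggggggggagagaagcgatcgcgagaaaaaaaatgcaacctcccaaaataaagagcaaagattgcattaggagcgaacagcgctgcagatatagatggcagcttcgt

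RefSeq promoters were at hand for 8 of the 10 members, not for Egr1 and Egr3. The CRE core occurred 4 times in each of the Nr4a1, Nr4a2 and Nr4a3 windows, 2 times in the Egr2 window shown, 1 time each in Klf2 and Klf4, and not in Klf6 or Klf7. It occurs in 17.8% of all 32851 windows of the same length. The CArG box, which 1.47% of windows hold, was found in 4 of the 5 Egr2 windows and in no other member. These 4 windows do not hold 4 separate sites. Numbered in order along the chromosome, Egr2 windows 3, 4 and 5 overlap and share the same CArG box and the same CRE cores. The CArG box of window 2 is a different site, and windows 1 and 2 hold no CRE core. The full CRE (TGACGTCA), present in 1.55% of windows, was in none of the members' windows. The site bound by EGR proteins (GCGNGGGCG), in 4.7% of windows, was found 2 times in Klf4 and 1 time each in Nr4a1, Nr4a2 and Klf2. The KLF-type CACCC box, held by 52.0% of windows, occurred 3 times in Klf7 and not in Klf4, while the GC box (GGGCGG), held by 32.7%, occurred 4 times in Klf4 and 1 time in Klf7. The NF-kB consensus site, in 7.25% of windows, was found in 1 Egr2 window alone among the members. The TATA core, in 22.8% of windows, was found 2 times each in Klf2, in Klf4 and in 1 Egr2 window, and 1 time in Nr4a2. Both strands were searched, so TTATAA counts 2 times, and the EGR site can share letters with the GC box, and the TATA core with the CArG box. These are matches of letters, and no binding was measured.

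Calls in both directions came from the Krüppel-like family. On the scanner arrays, scaled to each array's 75th percentile, Klf7 rose and Klf4 fell (Klf4 did not pass with spike-in scaling), and no other member passed an adjusted p of 0.05 by limma with Benjamini-Hochberg adjustment over 25848 features. Thus 2 of the 8 tested members were called, where 8.71% of the 14979 named genes were called (5.23% higher, 3.48% lower). In the authors' value table, 5 of 8 were called where 41.1% of named genes were (21.5% higher, 19.6% lower): Egr2 and Klf7 rose and Nr4a1, Klf2 and Klf4 fell, the latter 3 without a call when the scanner arrays were scaled to their spike-ins. With the slide or the replicate number as a block, since same-numbered samples deviated together, 6 of 8 were called in either source, Egr1, Egr2 and Klf7 as higher and Nr4a1, Klf2 and Klf4 as lower. In these blocked fits 33.8% of all named genes were called on the scanner arrays (16.6% higher, 17.2% lower) and 56.2% in the table (28.5% higher, 27.8% lower). On the scanner arrays the block left little information on each gene's own spread, and the members' SEs were nearly alike (0.064 to 0.072). These are bulk measurements of a cell line, so fewer cells expressing a gene and less RNA per cell cannot be told apart.

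The sign of the smaller estimates below 0 depended on how the arrays were scaled. When each array was scaled to its spike-in probes, the median change of all named genes was 0.50 on the log2 scale in place of -0.10, and the calls split into 2691 higher and 96 lower in place of 784 and 521, so that 18.6% of named genes were called (18% higher, 0.641% lower). Under that scaling 3 members rose (Egr1, Egr2 and Klf7) and none fell, and the estimates of Klf2, Nr4a2 and Klf6 moved from below 0 to 0.015, 0.45 and 0.48. Both scalings shift every gene of an array alike. Relative to the median gene of the same fit, the estimates were therefore nearly equal by construction: -0.48 and -0.49 for Klf2, -0.57 and -0.57 for Nr4a1, -0.86 and -0.86 for Klf4, and 1.80 and 1.80 for Klf7. Nr4a2 and Klf6 lay close to the median gene, at -0.05 and -0.02 under either scaling. Which scaling matches the amount of RNA per cell was not tested.

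**Figure D1:**
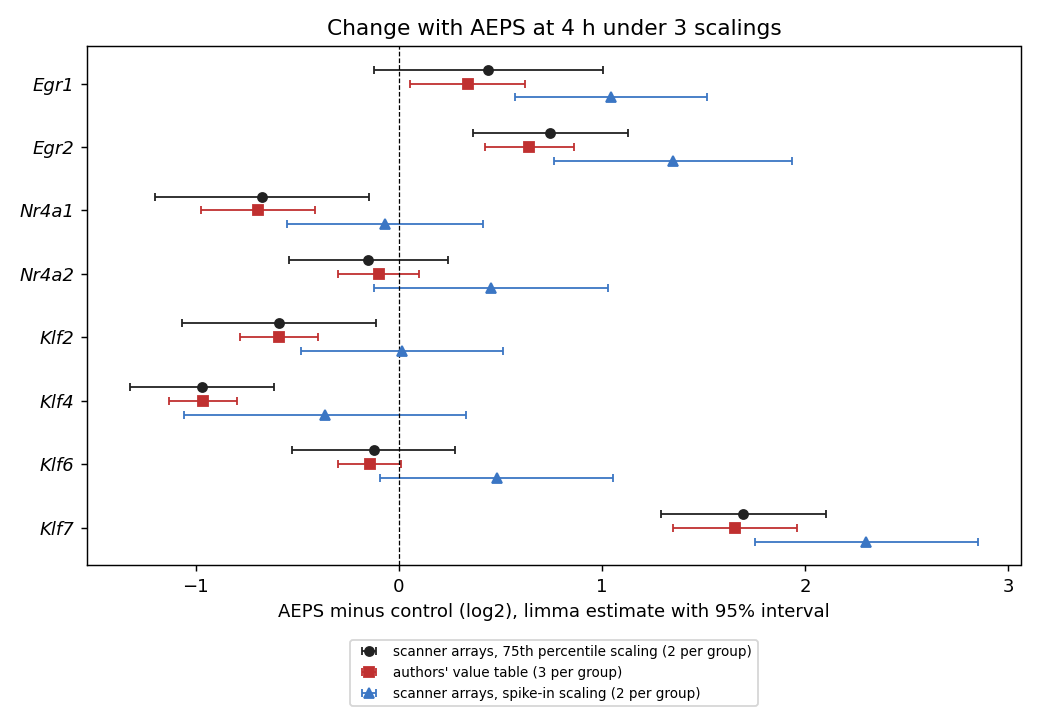
Log2 change with AEPS at 4 h for the 8 tested members under 3 scalings, as limma estimates with 95% intervals (2 arrays or 3 table columns per group). The estimates of Klf7 and Egr2 lie above 0 and that of Klf4 below 0 in every series, while Nr4a2, Klf2 and Klf6 lie below 0 except with spike-in scaling, where they are 0.45, 0.015 and 0.48.

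Of the EGR genes, Egr2, a factor induced in activated myeloid cells, gave the clearer difference. Its probe lies at chr10:67004798-67004857 (mm9, plus strand). The values in the authors' table, on a log2 scale of unstated offset, were 11.25, 11.21 and 11.46 in the control columns and 11.97, 11.93 and 11.95 in the AEPS columns. The groups did not overlap, and the AEPS values lay closer together than the control values (11.95 ± 0.02 against 11.31 ± 0.13, SD, n = 3). In the table Egr2 rose by 0.64 ± 0.09 on the log2 scale (limma, SE, adjusted p = 0.00449), a 1.56-fold change. On the scanner arrays its processed signal was 2616 and 1997 in controls and 6269 and 5717 with AEPS, higher in both AEPS arrays before any scaling. After scaling, the difference was 0.74 on the first slide and 0.75 on the second. The limma estimate of 0.75 ± 0.14 missed the threshold (adjusted p = 0.0587), and passed it with the slide as a replicate block (adjusted p = 0.0341) and with spike-in scaling (1.35, adjusted p = 0.0391).

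Egr1, the best known immediate-early member and a direct target of ERK signalling, showed a smaller difference with the same sign under each scaling. Its probe lies at chr18:35024395-35024454 (mm9, plus strand). The table values were 9.10, 9.36 and 9.38 in controls and 9.51, 9.75 and 9.60 with AEPS. The lowest AEPS value lay 0.13 above the highest control value, so the groups did not overlap, but the columns within a group spread almost as widely as the groups differed. The change was 0.34 ± 0.11 in the table (limma, adjusted p = 0.0704) and 0.44 ± 0.20 on the scanner arrays (adjusted p = 0.224). With the replicate block the same estimates passed the threshold, with adjusted p = 0.0228 in the table and 0.0453 on the scanner arrays. The within-slide differences were 0.44 on both slides, and the unscaled signal was 573 and 511 in controls against 1118 and 1176 with AEPS. With spike-in scaling Egr1 rose by 1.04 (limma, adjusted p = 0.0401).

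Egr3, a relative of both that is best known as an early response gene of lymphocytes, was barely above background. Its probe, at chr14:70479222-70479281 (mm9, plus strand), was well above background on 1 of 2 control and 1 of 2 AEPS arrays, with signals of 19.5 and 11.1 in controls and 39.2 and 16.6 with AEPS. The table values were 3.82, 3.84 and 3.54 against 4.50, 4.07 and 4.14, which did not overlap. In a fit without the filter the difference was 0.50 in the table (limma, adjusted p = 0.113) and 0.15 on the scanner arrays (adjusted p = 0.835), and the slides gave opposite signs, 0.48 and -0.18. Both tested EGR members thus had estimates above 0, with a family median of 0.59 on the scanner arrays and 0.49 in the table.

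Nr4a1, which encodes the nuclear receptor Nur77, lay in the opposite direction to the EGR genes after scaling. Its probe is at chr15:101105071-101105130 (mm9, plus strand). In the table it had values of 10.72, 10.87 and 11.02 in controls and 10.03, 10.23 and 10.27 with AEPS, and every AEPS column was below every control column. In the table Nr4a1 fell by 0.69 ± 0.11 on the log2 scale (limma, adjusted p = 0.00776), a 1.62-fold lower value, where spike-in scaling of the scanner arrays gave a change of -0.07 (adjusted p = 0.832). The scanner estimate was -0.67 ± 0.19 (adjusted p = 0.107, and 0.0352 with the slide as a replicate block), with -0.69 and -0.66 on the 2 slides. Before scaling the signals overlapped, at 1800 and 1548 in controls and 1602 and 1668 with AEPS, on arrays whose 75th percentile was higher with AEPS. When the third columns of the table were left out, the table estimate of -0.67 missed the threshold (adjusted p = 0.0644).

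Nr4a2, which encodes Nurr1, was measured by 2 probes that differed in the size of their change. Both had estimates below 0 on the scanner arrays and in the table, and only the dimmer passed in the table. The brighter probe, at chr2:56960699-56960758 (mm9, minus strand), had table values of 8.48, 8.66 and 8.50 in controls and 8.39, 8.50 and 8.45 with AEPS, so the groups overlapped between 8.48 and 8.50. Its change was -0.10 ± 0.08 in the table (limma, adjusted p = 0.390) and -0.15 ± 0.14 on the scanner arrays (adjusted p = 0.499). The dimmer probe, about 1 kb away at chr2:56959637-56959696, had table values of 6.88, 6.95 and 7.07 against 6.48, 6.56 and 6.50, with no overlap. With each probe as its own feature this probe fell by 0.45 in the table (limma, adjusted p = 0.00862), while on the scanner arrays the estimate was -0.52 (adjusted p = 0.113). The brighter probe's estimate was 0.45 with spike-in scaling (adjusted p = 0.218), so the sign for Nr4a2 turned with the scaling.

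Nr4a3, which encodes NOR1, was above background on none of the 4 arrays. Its signals were 4.08 and 2.94 in controls and 6.19 and 5.17 with AEPS, from a probe whose matched bases lie within chr4:48080690-48083876 (mm9, plus strand). The table values of 1.58, 1.89 and 1.51 in controls and 1.64, 2.45 and 2.53 with AEPS overlapped between the groups. No filtered fit included it, and without the filter the change was 0.55 in the table (limma, adjusted p = 0.324) and 0.04 on the scanner arrays (adjusted p = 0.907). The tested NR4A members had a family median of -0.41 on the scanner arrays and -0.40 in the table, against 0.19 with spike-in scaling.

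**Figure D2:**
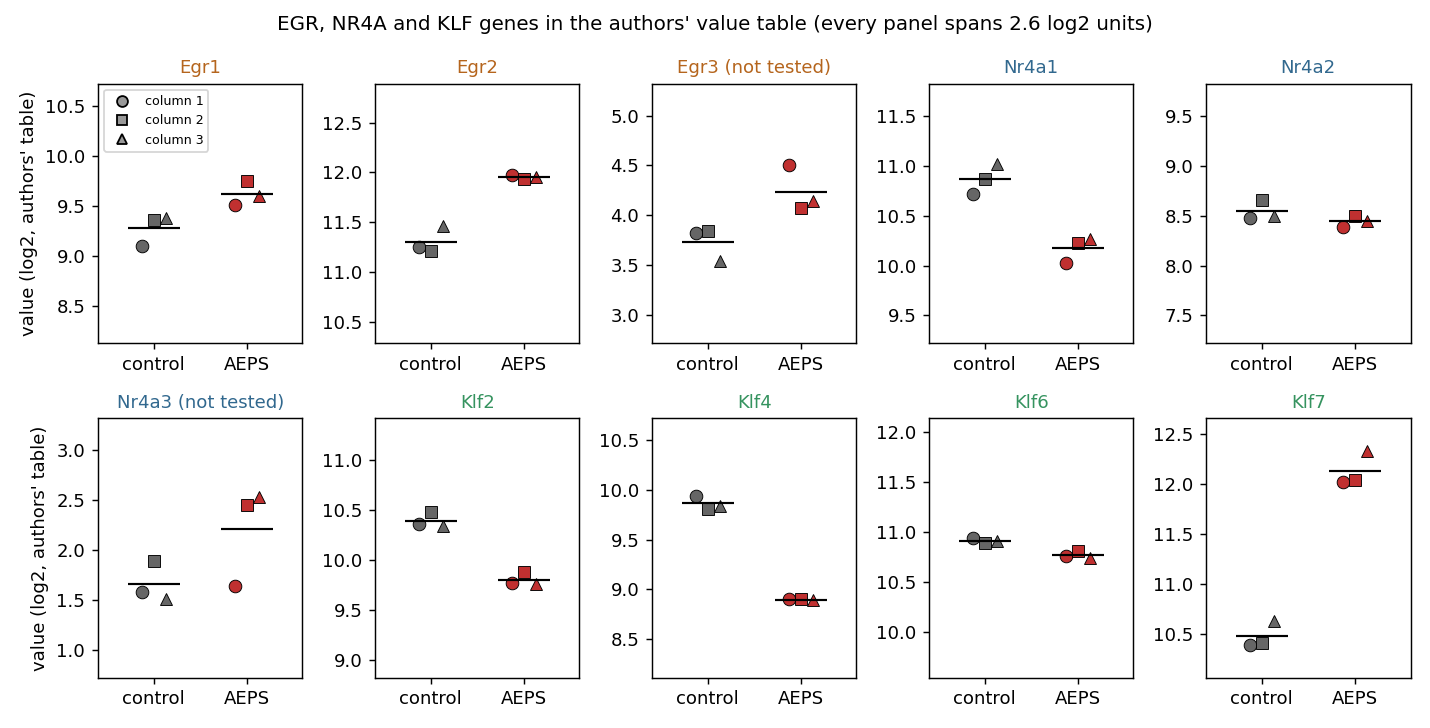
Values of the 10 members in the authors' table (log2), with a point for each of the 3 control and 3 AEPS columns, marked by column number, and a line at the group mean. Every panel spans the same log2 range, and Klf7 shows the widest separation, from 10.39 to 10.63 in controls to 12.02 to 12.33 with AEPS.

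Klf7, a Krüppel-like factor best known from neuronal and adipose development, had the largest change of the members in each fit. Its probe is at chr1:64082265-64082324 (mm9, minus strand). Klf7 values in the table were 10.39, 10.41 and 10.63 in controls and 12.02, 12.04 and 12.33 with AEPS. The gap between the groups, 1.39 from the highest control to the lowest AEPS value, was several times the spread within either group. On the scanner arrays the signal was 1411 and 1111 in controls and 6533 and 6156 with AEPS, higher with AEPS before any scaling as well. Klf7 rose by 1.70 ± 0.15 on the scanner arrays (limma, adjusted p = 0.0234), a 3.24-fold change, and by 1.65 ± 0.12 in the table (adjusted p = 0.000689). The estimate ranked 303 from the top among the 14979 named genes, and it was 1.69 and 1.70 on the 2 slides and 2.30 with spike-in scaling (adjusted p = 0.0266). With only 3 scanner arrays, numbered by the scanner files, the call was lost without control replicate 1 (adjusted p = 0.142), without control replicate 3 (0.113) and without AEPS replicate 3 (0.0542), at estimates of 1.62 to 1.77.

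Klf4, a factor known in macrophages for promoting alternative activation, was the member with the lowest estimate. Its probe is at chr4:55540167-55540226 (mm9, minus strand). In the table, Klf4 had values of 9.94, 9.81 and 9.84 in controls and 8.90, 8.90 and 8.89 with AEPS, so that the 3 AEPS columns were almost equal and lay far below the controls. Klf4 fell by 0.97 ± 0.13 on the scanner arrays (limma, adjusted p = 0.0380), a 1.96-fold lower value, and by 0.97 ± 0.07 in the table (adjusted p = 0.000578), while spike-in scaling gave -0.36 (adjusted p = 0.397). The unscaled signal was 1018 and 710 in controls and 734 and 627 with AEPS, lower with AEPS on each slide but overlapping across slides. The within-slide changes after scaling were -0.99 and -0.95. Leaving out any 1 of the 4 scanner arrays ended the call, with estimates of -0.99 to -0.95 and adjusted p from 0.0962 to 0.217.

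Klf2, a factor known for holding monocytes and T cells in a quiescent state, moved in the same direction as Klf4 in the table. Its probe is at chr8:74845137-74845196 (mm9, plus strand). Klf2 had table values of 10.36, 10.48 and 10.34 in controls and 9.77, 9.88 and 9.76 with AEPS, with no overlap. In the table Klf2 fell by 0.59 ± 0.08 (limma, adjusted p = 0.00368), a 1.51-fold lower value, where spike-in scaling of the scanner arrays gave 0.015 (adjusted p = 0.966). The scanner estimate was -0.59 ± 0.17 (adjusted p = 0.112, and 0.0370 with the slide as a replicate block), with -0.57 and -0.61 on the 2 slides. The unscaled signals, 1383 and 1175 in controls and 1335 and 1311 with AEPS, overlapped. Without the third columns of the table the adjusted p was 0.0580 at an estimate of -0.60.

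Klf6, a widely expressed factor with reported roles in inflammatory macrophages, did not pass the threshold in either source. Its probe is at chr13:5869371-5869430 (mm9, plus strand). The table values were 10.94, 10.89 and 10.91 in controls and 10.76, 10.81 and 10.74 with AEPS, which did not overlap but lay close together, 0.08 apart at the nearest. The change was -0.14 ± 0.06 in the table (limma, 95% interval -0.30 to 0.01, adjusted p = 0.135) and -0.12 ± 0.14 on the scanner arrays (-0.52 to 0.28, adjusted p = 0.585), and 0.48 with spike-in scaling (adjusted p = 0.198). The Krüppel-like members thus held both the highest and the lowest estimate of all members. Their median was -0.36 on the scanner arrays and -0.37 in the table, against 0.25 with spike-in scaling.

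A shift common to a whole array, such as the 75th percentile or spike-in scaling, does not move the difference between 2 members on that array. The families were therefore also compared by the differences within the 28 pairs of tested members. They were taken in the table, whose normalization is not such a shift, and departed from the mean of the 2 scanner slides by at most 0.153. In the table, 25 of the 28 differences did not overlap between control and AEPS columns, where 54.3% of all 112177731 pairs of named genes did not. Nothing particular to the members is read from that count. Each of these gave an exact permutation p of 0.1 (two-sided), the smallest that 3 against 3 columns allow, and 0.112 after Benjamini-Hochberg adjustment over the pairs, so this test, which leaves the pairing out, could not pass the threshold. The change of Egr2 exceeded that of Nr4a1 by 1.34 on the log2 scale, with Egr2 minus Nr4a1 between 0.34 and 0.53 in controls and between 1.68 and 1.94 with AEPS. The change of Egr1 exceeded that of Nr4a1 by 1.03 and that of Klf4 by 1.31. The widest difference lay within one family, where the change of Klf4 was below that of Klf7 by -2.62 (Klf4 minus Klf7 from -0.79 to -0.45 in controls and from -3.44 to -3.12 with AEPS). On the scanner arrays this difference was -2.68 on the first slide and -2.65 on the second. Both EGR members lay on one side of Nr4a1, Nr4a2, Klf2, Klf4 and Klf6 and on the other side of Klf7. The 3 pairs that overlapped were Nr4a1 with Klf2 (-0.10, exact permutation p = 0.5), Nr4a1 with Klf4 (0.27, exact p = 0.2) and Nr4a2 with Klf6 (0.04, exact p = 0.6).

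**Figure D3:**
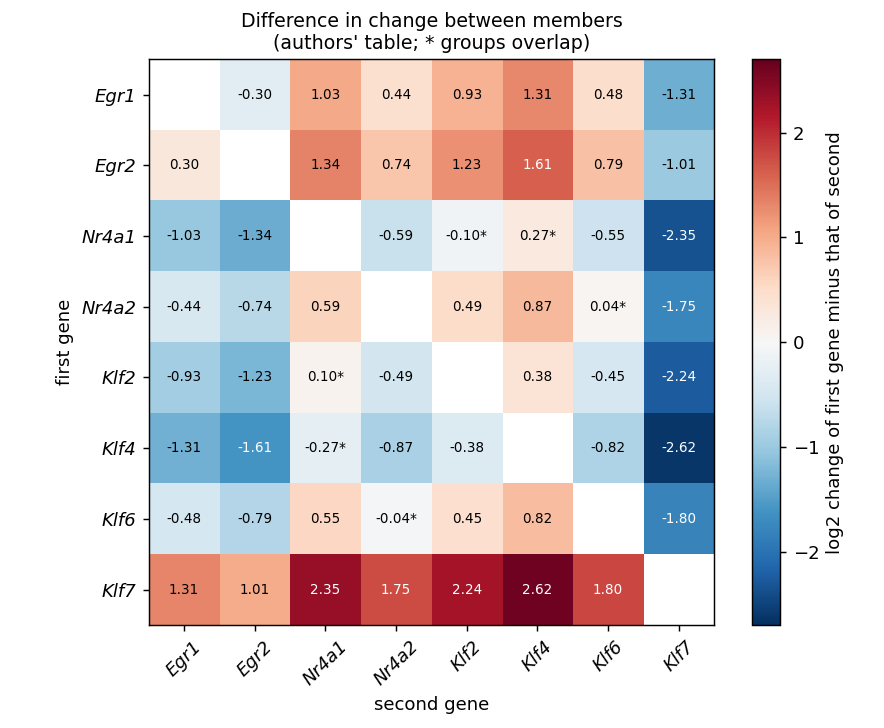
Log2 change with AEPS of the gene in the row minus that of the gene in the column, for the 28 pairs of tested members in the authors' table (means of 3 columns per group). Red cells mark a higher change in the row gene, asterisks mark the 3 pairs whose control and AEPS values overlapped, and the Klf4 row reaches the lowest value, -2.62 against Klf7.

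The co-repressors of EGR proteins split in direction. Nab1 and Nab2 encode proteins that bind EGR factors and curb their activity, and NAB2 is itself an EGR target. Of the 4 EGR relatives and co-repressors, Egr4 and Wt1 were above background on no array. Nab1 rose by 1.02 ± 0.14 on the scanner arrays (limma, adjusted p = 0.0413) and by 0.98 in the table, and its estimate was 1.63 with spike-in scaling. Nab2 fell by 0.47 in the table (adjusted p = 0.0119), with a scanner estimate of -0.52 (adjusted p = 0.0982) and 0.09 with spike-in scaling.

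Of the 13 other Krüppel-like genes, 8 were tested. None rose, and 2 fell on the scanner arrays and 4 in the table, where 3.48% and 19.6% of all named genes fell. The median change was -0.42 and -0.24, where the median named gene had -0.10 and -0.02. Klf9, a glucocorticoid-responsive factor, fell by 1.11 ± 0.14 on the scanner arrays (limma, adjusted p = 0.0363), with -0.50 under spike-in scaling. Klf10, a TGF-beta inducible factor, fell by 0.90 ± 0.13 (adjusted p = 0.0422), with -0.30 under spike-in scaling. Klf13 and Klf16 fell in the table alone, by 0.33 (limma, adjusted p = 0.0231) and 0.63 (adjusted p = 0.00543), where spike-in scaling gave 0.33 and -0.05. Of the 9 SP factors, which share the GC box with this family, 7 were tested and none passed in either source, with medians of -0.08 and -0.05.

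All 17 upstream regulators examined were tested, and 1 passed on the scanner arrays and 9 in the table. Of all named genes, 8.71% passed on the scanner arrays and 41.1% in the authors' values. Whether this list differs from the named genes at large was not tested. Mrtfa, the actin-regulated coactivator of SRF, fell by 1.50 ± 0.14 on the scanner arrays (limma, adjusted p = 0.0258) (-1.44 in the table), and its estimate was -0.89 with spike-in scaling. Srf itself did not pass, with 0.04 in both sources. The SRF partners Elk3 and Elk4 fell in the table by 0.82 and 0.51 (limma, adjusted p = 0.00101 and 0.0411), where spike-in scaling gave -0.25 and 0.05. In the CREB group, Creb1 and Atf1 rose in the table by 0.91 and 0.41 (limma, adjusted p = 0.000668 and 0.00724), and spike-in scaling gave 1.45 and 1.06. Their coactivators Crtc1 and Crtc3 fell in the table by 0.57 and 0.50 (limma, adjusted p = 0.00682 and 0.00456), where spike-in scaling gave 0.00 and 0.14. Mef2d and Map2k5 belong to the ERK5 pathway, which drives Klf2 and Klf4 in endothelial cells. In the table they fell by 0.58 and 0.33 (limma, adjusted p = 0.00801 and 0.0135), where spike-in scaling gave 0.08 and 0.23. Of the same list, Mapk7, Mef2a and Mef2c did not pass in either source, with -0.16, -0.14 and 0.39 in the table. Of the 3 retinoid X receptors, partners of NR4A1 and NR4A2, Rxrb fell by 0.96 ± 0.14 on the scanner arrays (limma, adjusted p = 0.0420) (-0.89 in the table), with -0.35 under spike-in scaling, and Rxra and Rxrg did not pass.

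**Figure D4:**
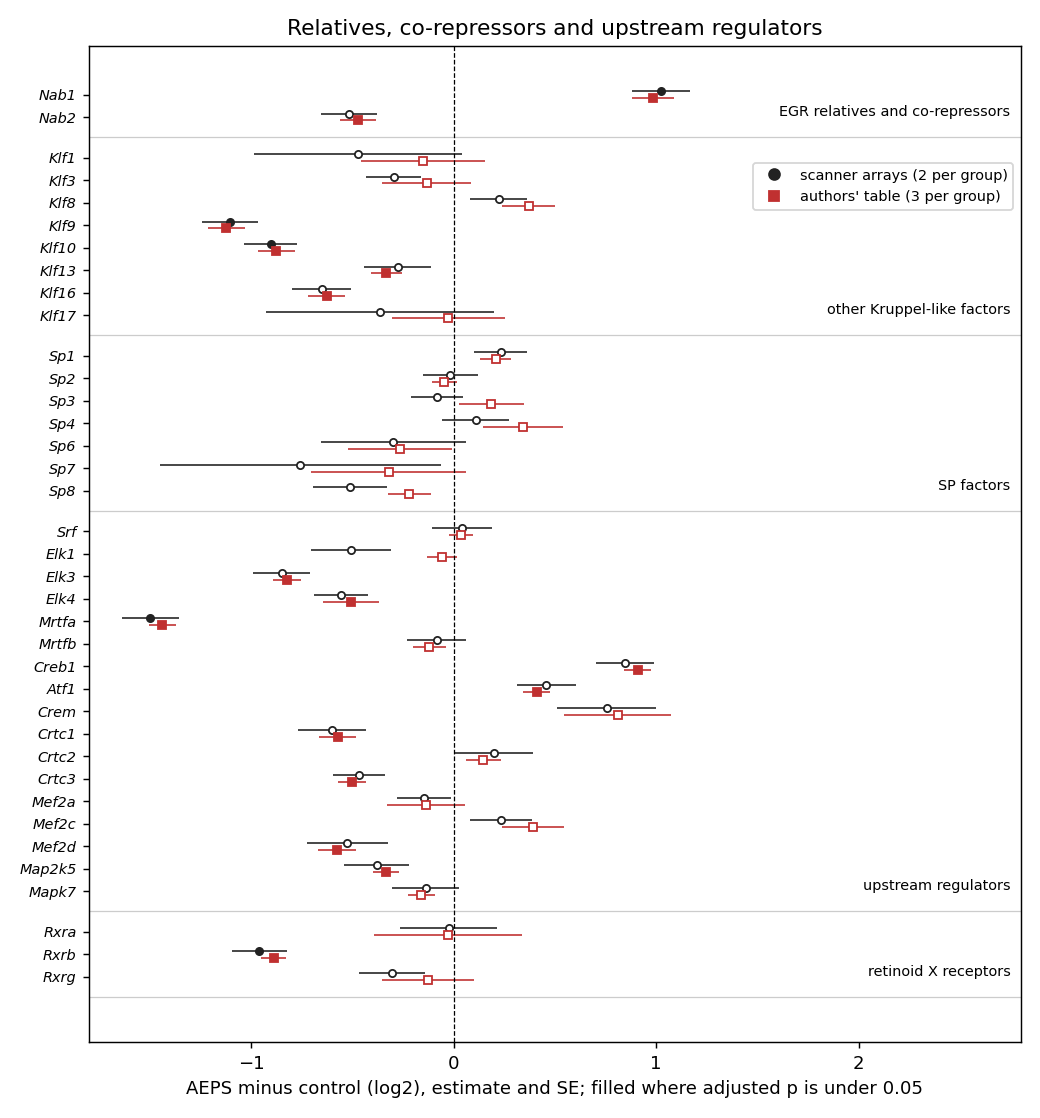
Log2 change with AEPS (estimate and SE) of the tested co-repressors, other Krüppel-like factors, SP factors, upstream regulators and retinoid X receptors, on the scanner arrays (circles) and in the authors' table (squares), filled where the adjusted p is under 0.05. Nab1 lies near 1 in both sources and Mrtfa near -1.5, and no SP factor is filled.

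For the member with the largest change in each family, the 3 genes with the closest profile were found by the root mean square distance over the 6 table columns, after centring each of 14971 genes. They were Lancl2, Psmd10 and Srp9 for Egr2 (0.032, 0.037 and 0.038 on the log2 scale), and B4galt7, Scrn2 and Tmem43 for Nr4a1 (0.023, 0.030 and 0.032). Klf7 was followed by LOC100503637, Rgs16 and Nupr1 at 0.054, 0.067 and 0.071. The distances are a description over 6 columns.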

How the data were processed

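RNA of RAW264.7 cells was measured on 1-colour Agilent arrays in 3 control and 3 AEPS samples. Per the file headers, Agilent Feature Extraction 10.7.1.1 made the deposited intensity values, with background subtraction and detrending within each array and no normalization between arrays. The deposited spot flags mark probes well above background. The authors' value table holds log2 values whose columns share one distribution (median 4.72, from 1.36 to 19.21). Its scale follows log2 of the scanner signal, the genes are not centred, and its offset and normalization are not given in the sources used here.

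Identical scanner files were counted once, which left 2 distinct arrays per group. Non-control, unflagged spots were averaged per probe, taken as log2 processed signal and set against each array's 75th percentile. A probe was tested if either group had it well above background on all of its arrays, with limma 3.58.1 in R 4.3.3 (lmFit, eBayes), with Benjamini-Hochberg adjustment over 25848 features at 0.05. The brightest tested probe stood for a gene. The table was fitted on the same probes. The design fitted the groups without a block. Gene symbols came from RefSeq accessions for 26582 of 55681 probes and from the scanner annotation for 4818, and 24281 probes stayed unnamed. The fit was tested on simulated data with independent noise in each sample. That simulation held no slide or pairing effect, unlike these data, so it does not bear on the pairing. Probe coordinates are those of the array design (mm9), and no exon or UTR was assigned. Promoters are RefSeq's (GRCm38.p6).

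Same-numbered table columns deviated together (r = 0.58, 0.38 and 0.41, against -0.50 to 0.24 between other numbers), as did arrays of one slide (r = 0.62), so the numbers were taken to pair the samples. Each scanner slide was also one scan.

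The members and lists were chosen with earlier results of these data known. Named are all members, every list gene that passed in either source, and, for the member with the largest change in each family, the 3 nearest profiles. Alternatives were the background correction, scaling, dim-probe filter, flagged spots, probe choice, replicate block and leaving out replicates. Leaving out the third columns of the table and the differences between members were added after the data were seen. The few arrays limit the precision. One marker gene is not reported here.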

Additional observations from a re-analysis of the deposited data

How the results depend on the processing

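On the scanner arrays, 2 members were called. The count was 4 with normexp background correction, 3 with quantile normalization, 3 with spike-in scaling and 3 with probes above background on every array. It was 2 with flagged spots kept, with the mean of probes and with every probe as its own feature, 6 with the replicate block and 5 in the authors' table. Without the filter limma called 0 members and 0 named genes, although 4 members and 4369 named genes had an unadjusted p under 0.05. Leaving out one array gave 0 to 1, with the lone array of a group assumed to vary like the other group. The table's 5 calls became 6 with the replicate block, 5 without the filter, 6 with the mean of probes (Nr4a2 added), and 5 to 5 when one column was left out. Without the third columns of both groups, an alternative chosen after seeing the data, 3 were called (Egr2, Klf4 and Klf7). With spike-in scaling 3 estimates changed sign, those of Nr4a2 (0.45), Klf2 (0.015) and Klf6 (0.48). By construction it shifts every gene of an array alike. Over single members and settings, 86 scanner values kept sign and side of the threshold, while 13 gained a call, 10 lost it and 3 changed sign, and 84 of 88 table values kept both, while 2 gained and 2 lost a call.

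Of 14979 named genes, 1305 were called on the scanner arrays (784 higher, 521 lower). The counts were 2990 with normexp (1490 and 1500), 2157 with quantile normalization, 2787 with spike-in scaling, 5056 with the replicate block, and 7 to 514 with one array left out, while 2119 probes were called with each probe on its own. The table's 6153 became 8423 with the replicate block, 6073 with the mean of probes, 4852 of 23621 without the filter, 4087 without AEPS replicate 2 and 1985 without the third columns. The causes of these moves were not tested. The replicate block changed no other call of a member than those given beside the results. The scaling decides the sign of the Nr4a2, Klf2 and Klf6 estimates. Further, 2 distinct arrays per group limit the scanner tests, and the dim Egr3 and Nr4a3 probes bound what can be said of these genes.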

Other observations

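Elk1, an SRF partner picked out after its values were seen, differed between the sources. Its estimate was -0.51 ± 0.20 on the scanner arrays (limma, adjusted p = 0.177) and -0.06 ± 0.07 in the authors' table (adjusted p = 0.606), with 0.10 under spike-in scaling. Its scaled log2 signal was 10.03 and 10.40 in controls and 9.60 and 9.82 with AEPS. Fcgr1, the high-affinity IgG receptor and one of the 8 macrophage markers, fell by 1.49 ± 0.18 on the scanner arrays (limma, adjusted p = 0.0344) (-1.39 in the table), with -0.88 under spike-in scaling. In the table Csf1r also fell by 0.36 (limma, adjusted p = 0.0124), and Adgre1 and Spi1 rose by 0.31 and 0.38 (adjusted p = 0.0496 and 0.0311), where spike-in scaling gave 0.00, 0.97 and 0.98.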
